A study of Mus musculus with 8 samples.

Results

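Retinoid metabolism genes were examined in skin of mice labelled as knockouts of Adam10, a protease of the cell surface whose substrates include Notch receptors. The 9 genes are Aldh1a1, Aldh1a2, Aldh1a3, Aldh1a7, Rdh10, Dhrs9, Crabp2, Rarg and Rxra, and they are 9 of 19935 genes that the arrays measured through a probe set with exactly 1 gene symbol. Each of the 9 had 1 such probe set, so the choice by highest mean level between probe sets of a gene did not arise. The set was built around Aldh1a7, which was chosen by its KO minus WT difference on these same arrays, and the other 8 were taken by function. Values of Aldh1a7 are therefore a description with no test, and the other 8 were picked with earlier results of these arrays known.

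The samples are 4 Adam10 knockout (KO) and 4 Adam10 wild-type (WT) mouse skin samples on Affymetrix Mouse Gene 1.0 arrays. The titles of the knockouts begin with cKO, and which cells lost Adam10 is not given in the labels. The labels name the samples both as skin and as primary skin cells, and give neither strain, sex nor an agent. They carry the numbers 67, 68, 69 and 55 for KO arrays 1 to 4 and 57 to 60 for WT arrays 1 to 4, without saying whether these are animals or ages.

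Retinoids are vitamin A and its derivatives. Retinol is oxidised reversibly to retinal by dehydrogenases of the short-chain and alcohol dehydrogenase families. Retinal is oxidised irreversibly to retinoic acid by the aldehyde dehydrogenases Aldh1a1, Aldh1a2 and Aldh1a3. Aldh1a7 is taken here as a paralog of these and not as an enzyme of that step, and its action on retinal was not tested. Crabp2 carries retinoic acid to nuclear receptors, which bind DNA as pairs of a RAR and an RXR. In skin, retinoic acid is known for its effects on keratinocyte differentiation, sebaceous glands and hair follicles.

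Adam10 itself had log2 intensities of 6.85, 7.00, 7.04 and 6.79 on KO arrays 1 to 4, against 7.39, 7.33, 7.06 and 7.34 on WT arrays 1 to 4. The groups did not overlap, although the highest KO value and the lowest WT value were 0.0187 apart, and the difference of -0.36 (SE 0.11) missed the threshold (limma adjusted p = 0.064). WT array 4 and, less so, WT array 3 stood apart in markers of tissue below the epidermis. The summed intensity of 8 skeletal muscle markers was 156 to 207 on KO arrays, against 200 to 227 on WT arrays 1 and 2, 992 on WT array 3 and 6161 on WT array 4. For 7 dermal fibroblast markers it was 1265 to 1412 on KO arrays and 1072, 1088, 2283 and 7066 on WT arrays 1 to 4. On KO arrays the brightest of these was Dcn (9.62 to 9.75, against 8.77 to 9.93 on WT arrays), which differed by 0.48. The others differed by -2.24 (Col3a1) to -0.02 (Fbln1). Adipocyte markers, 5 in number, summed to 48.3 to 55.4 on KO arrays and 51.8 to 61.4 on WT arrays 1 to 3, with 681 on WT array 4. In bulk samples, fewer cells of a type and less RNA per cell cannot be told apart. Basal keratinocyte markers were high on every array, 10630 to 12280 summed over 6 genes on KO arrays and 6292 to 8461 on WT arrays.

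Aldh1a7 and Aldh1a1 lie next to each other among the measured genes of chromosome 19. The 300 bases around their starts (250 before, 50 after, RefSeq, build GRCm38.p6) are shown because these paralogs have near-identical stretches there but differed in how far they moved. Capitals mark runs of at least 12 bases that the 2 sequences share in a pairwise alignment. The Aldh1a7 sequence is at chr19:20727507-20727806 on the minus strand, and the closer of 2 Aldh1a1 entries is at chr19:20601718-20602017 on the plus strand.
Aldh1a7: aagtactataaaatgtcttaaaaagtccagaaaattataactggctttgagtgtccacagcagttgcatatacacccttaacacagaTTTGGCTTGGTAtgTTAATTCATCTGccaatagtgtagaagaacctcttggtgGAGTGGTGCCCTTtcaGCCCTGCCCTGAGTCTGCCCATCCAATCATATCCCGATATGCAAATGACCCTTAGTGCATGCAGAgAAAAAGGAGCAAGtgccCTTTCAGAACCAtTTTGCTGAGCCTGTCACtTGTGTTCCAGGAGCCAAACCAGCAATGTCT
Aldh1a1: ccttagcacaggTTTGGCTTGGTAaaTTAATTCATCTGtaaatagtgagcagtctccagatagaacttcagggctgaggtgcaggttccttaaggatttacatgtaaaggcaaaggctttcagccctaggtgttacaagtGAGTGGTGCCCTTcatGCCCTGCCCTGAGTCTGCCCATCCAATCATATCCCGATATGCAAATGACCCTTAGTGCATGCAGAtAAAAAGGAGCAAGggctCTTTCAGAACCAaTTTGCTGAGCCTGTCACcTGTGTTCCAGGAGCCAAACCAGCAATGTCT
The alignment paired 225 bases, of which 208 were identical, and the longest shared run had 65 bases. As a share of the 300 bases, 69.3% were identical between Aldh1a7 and this Aldh1a1 entry, against 37.0% to 56.7% for the other 7 entries of the members. The 56.7% is the other Aldh1a1 entry, and the next was Dhrs9 (53.3%). Promoters of genes outside the set were not aligned, so the share that unrelated promoters reach is not known here. The 65-base run holds ATGCAAAT, an octamer motif, at 56 bases before the start in both genes, and CCAAT at 72 bases before it. Searched on both strands, ATGCAAAT was found in 1.74% of all 32851 promoter entries and in 3 of the 9 entries of members, those of Aldh1a7, Aldh1a1 and Aldh1a2. The matches in Aldh1a7 and Aldh1a1 lie in their shared 65-base run and are not separate finds, so the 3 of 9 cannot be set against the 1.74%. CCAAT was found in 37.4% of all entries and in the same 3 of members, where Aldh1a7 and Aldh1a1 again share a match in that run. Exact direct repeats of AGGTCA spaced by 5 or by 2 bases, spacings that retinoic acid receptors bind, were also searched. Each was found in 0.00913% of all entries (3 of 32851) and in 0 of the 9 entries of members. Exact matches are so rare that the 0 tells nothing of the members, and repeats that differ from AGGTCA in a letter were not searched. Matches of letters describe the sequence and do not show binding.

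Aldh1a7, an aldehyde dehydrogenase of rodents and the paralog of Aldh1a1, had log2 intensities of 4.31, 3.99, 3.70 and 4.73 on KO arrays 1 to 4, against 7.32, 6.87, 7.31 and 6.85 on WT arrays 1 to 4. Every KO value lay at least 2.12 below every WT value. On the linear scale the KO values were 12.97 to 26.47 intensity units and the WT values 115 to 160. The difference of -2.91 (SE 0.21) is 7.51-fold on the scale of the deposited values, and 2 of 19935 genes had a lower difference. Without WT arrays 3 and 4 the difference was -2.92.

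Aldh1a1, which oxidises retinal to retinoic acid, was also lower. Its log2 intensities were 3.41, 3.27, 3.32 and 3.46 in KO skin, against 3.89, 4.16, 4.02 and 4.01 in WT skin, and the groups did not overlap. The difference was -0.65 (SE 0.10, limma adjusted p = 0.0044), or 36.4% lower. It passed in all 19 alternative settings, with an adjusted p of 0.0219 at the highest. The signal is low, 9.68 to 11 intensity units in KO skin against 14.8 to 17.9 in WT skin, and with 16 added before the logarithm the difference was -0.29. The KO minus WT difference of Aldh1a7 minus that of Aldh1a1 was -2.25 on the log2 scale. How far the probes of this paralog pair also bind the other transcript was not tested, so the fall of Aldh1a1 and a contribution from Aldh1a7 RNA cannot be told apart.

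The other retinal dehydrogenases, Aldh1a2 and Aldh1a3, did not pass. Aldh1a2, which makes retinoic acid in many embryonic and stromal tissues, was at 2.05, 2.61, 2.29 and 2.40 in KO skin, against 2.22, 2.69, 2.51 and 3.18 in WT skin. It lay below the 25th percentile of measured genes on 7 of 8 arrays, with WT array 4 the exception, and the groups overlapped (-0.32, SE 0.19, limma adjusted p = 0.34). Without WT array 4 the difference was -0.14. Aldh1a3, an enzyme of the same step in epithelia, was at 4.17, 4.58, 4.44 and 3.86 in KO skin, against 4.13, 4.15, 4.14 and 4.42 in WT skin. The KO values spread on both sides of the WT values (0.05, SE 0.15, limma adjusted p = 0.87), and the sign turned without KO array 2 (-0.0556) or KO array 3 (-0.0079).

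**Figure D1:**
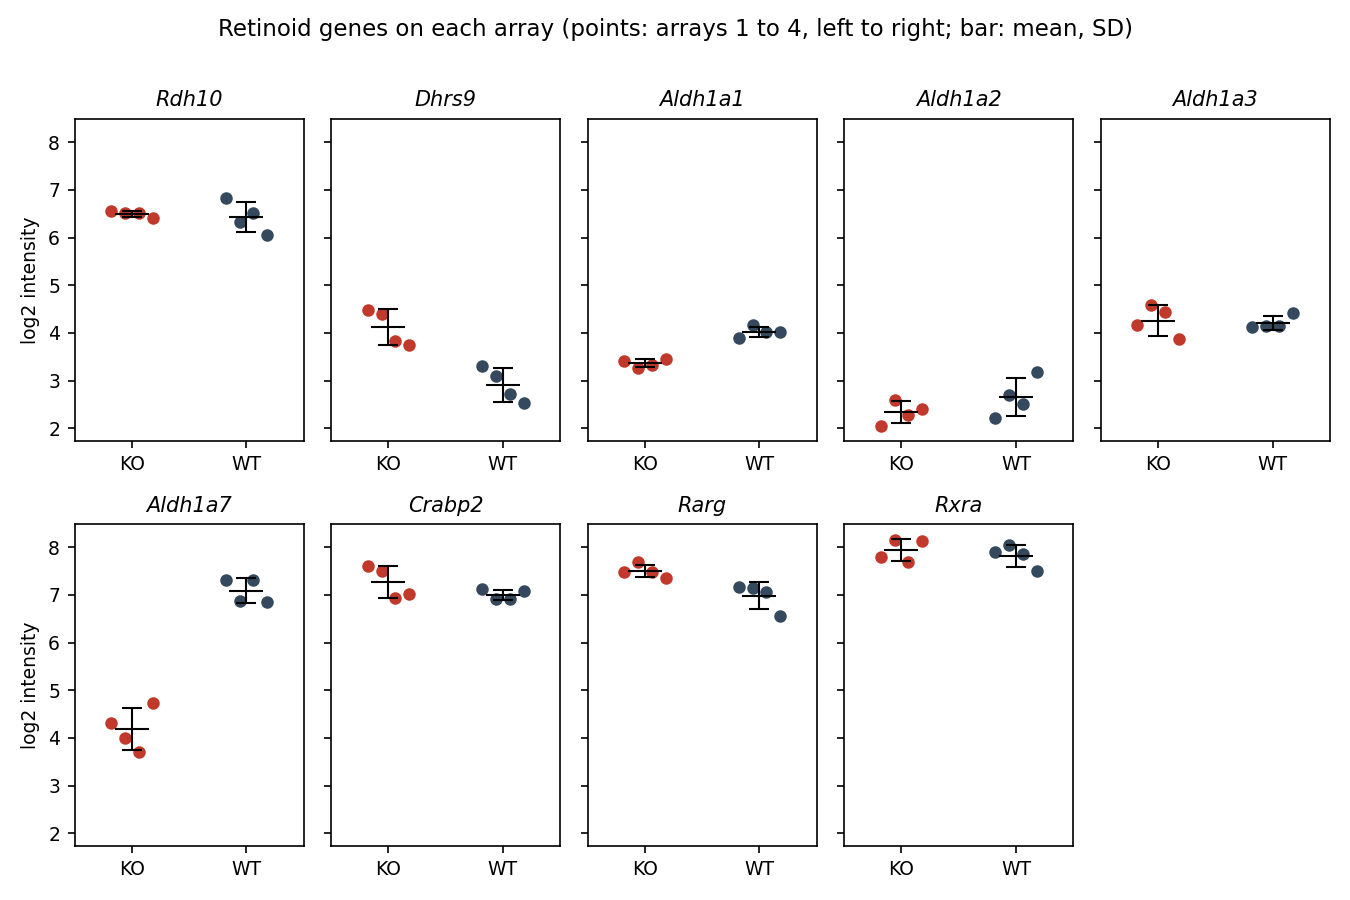
Log2 intensity of the 9 retinoid genes on each array, KO left of WT, with points for arrays 1 to 4 from left to right and bars for the group mean and SD (n = 4 each). Aldh1a7 lies between 3.70 and 4.73 in KO and between 6.85 and 7.32 in WT, Aldh1a1 and Dhrs9 are separated by less, and Rdh10, Aldh1a2, Aldh1a3, Crabp2 and Rxra overlap between the groups.

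Among the retinol dehydrogenases of the set, Dhrs9 rose and Rdh10 did not pass. Dhrs9, a short-chain dehydrogenase that oxidises retinol and 3-alpha-hydroxysteroids, was at 4.48, 4.39, 3.84 and 3.74 in KO skin, against 3.30, 3.09, 2.71 and 2.52 in WT skin. All KO values lay above all WT values, and WT arrays 3 and 4 lay below the 25th percentile of measured genes. The rise of 1.21 (SE 0.21, limma adjusted p = 0.0089) is 2.31-fold, and it passed in all 19 alternatives (adjusted p 0.00080 to 0.042). Its size depends on the low values, with 0.51 when 16 was added before the logarithm and 0.92 without WT arrays 3 and 4. Rdh10, the retinol dehydrogenase that supplies retinal in the embryo, was at 6.55, 6.52, 6.51 and 6.42 in KO skin, against 6.83, 6.34, 6.51 and 6.06 in WT skin. The KO arrays lay close together within the WT range (0.07, SE 0.15, limma adjusted p = 0.82), and the sign turned without WT array 4 (-0.0581).

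The carrier and the receptors were bright on every array. Crabp2 was at 7.61, 7.50, 6.94 and 7.02 in KO skin, against 7.11, 6.91, 6.91 and 7.08 in WT skin. KO arrays 1 and 2 lay above the other 6 arrays, and the difference of 0.26 (SE 0.16) did not pass (limma adjusted p = 0.32). It was 0.149 without KO array 1 and 0.13 after cyclic loess. Rarg, the main RAR of epidermis, was at 7.49, 7.68, 7.47 and 7.36 in KO skin, against 7.16, 7.14, 7.07 and 6.56 in WT skin. The groups did not overlap, and the difference of 0.52 (SE 0.14) lay just outside the threshold of 0.05 (limma adjusted p = 0.0505). Without WT array 4, its lowest value, the difference was 0.38 and passed (adjusted p = 0.044). It also passed without WT array 1 (0.58, adjusted p = 0.047), and it was 0.35 without WT arrays 3 and 4 (adjusted p = 0.15) and 0.29 with the muscle covariate (adjusted p = 0.19). Rxra, the main RXR of epidermis, was at 7.79, 8.15, 7.70 and 8.14 in KO skin, against 7.90, 8.04, 7.86 and 7.49 in WT skin, and the groups overlapped (0.12, SE 0.15, limma adjusted p = 0.65).

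Besides Aldh1a7, 2 of the 8 other members passed, Dhrs9 higher and Aldh1a1 lower, and 6 did not. Over all genes 8.75% passed, 6.41% higher and 2.34% lower in KO. The groups did not overlap for 2 of the 8 on the higher side and 1 on the lower side, where 12.2% and 5.86% of all genes did not overlap, 18.1% in either direction. The median difference of the 8 was 0.09, beside 0.0027 over all genes. The share of higher genes among all genes called was 73.2%, and it was 89.6% with each array centred on its median, 63.0% with quantile normalization and 56.9% with cyclic loess. Median centring put the median difference over all genes at 0.105. Aldh1a1 and Dhrs9 kept their directions and calls under each of these.

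Outside the set, 57 other genes of the retinoid pathway were analysed, and 8 fell and 2 rose. That is 14% lower and 3.51% higher, beside 2.34% and 6.41% of all genes. Of the 8 falls, 6 were among enzymes that interconvert retinol and retinal. Of 21 measured oxidoreductases 6 fell and 0 rose (28.6% lower, beside 2.34% of all genes), with a median of -0.055 over the 21. The 21 leave out Dhrs9 and Rdh10, which belong to the set, so the 0 does not count the rise of Dhrs9 (1.21). The number of all genes called lower was 467, and ran from 161 without KO array 2 to 647 without WT array 4, with 1216 under array weights. The 6 oxidoreductases became 4 without KO array 2 or WT array 3. These enzymes were examined knowing earlier results of the same arrays.

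Dhrs7, a short-chain dehydrogenase that reduces steroids and retinoids, was at 5.58, 5.20, 5.29 and 5.88 in KO skin, against 6.83, 6.68, 6.68 and 6.90 in WT skin (-1.29, SE 0.15, limma adjusted p = 0.0019). Rdh12, a retinal reductase best known from photoreceptors, was at 6.79, 6.84, 6.38 and 7.22 in KO skin, against 8.59, 7.93, 8.17 and 7.64 in WT skin (-1.27, SE 0.22, limma adjusted p = 0.0079). Neither gene had a KO value inside the WT range. Adh1, a class I alcohol dehydrogenase that oxidises retinol, was at 8.83, 9.04, 9.35 and 9.17 in KO skin, against 10.15, 10.46, 10.63 and 9.61 in WT skin (-1.12, SE 0.21, limma adjusted p = 0.011). Sdr16c5, an epidermal retinol dehydrogenase, was at 6.76, 6.83, 6.61 and 7.08 in KO skin, against 8.17, 7.66, 8.12 and 7.56 in WT skin (-1.06, SE 0.16, limma adjusted p = 0.0052). Dhrs7, Rdh12, Adh1 and Sdr16c5 passed in all 19 alternatives. For these 4 genes WT was between 2.09-fold and 2.45-fold above KO.

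The remaining 2 falls of the list lost their calls in some alternatives. Sdr16c6, a close relative of Sdr16c5 named here after its values were seen, changed by -1.03 (SE 0.22, limma adjusted p = 0.019) and lost its call without KO array 2 or WT array 3 (adjusted p = 0.063 and 0.062). How the probes of such relatives share signal was not tested. Dhrs3, a retinal reductase that retinoic acid induces, changed by -0.47 (SE 0.10, limma adjusted p = 0.025). It lost its call without KO array 1, 2 or 3 or WT array 3 (adjusted p 0.063 to 0.084), and without WT arrays 3 and 4 together (adjusted p = 0.11). With those 2 WT arrays left out, 5 of the 21 oxidoreductases fell and 8 of the 57 pathway genes did. The largest positive difference in the list was 0.31, and 0 of its genes passed upward, with Dhrs9 of the set not counted in it.

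**Figure D2:**
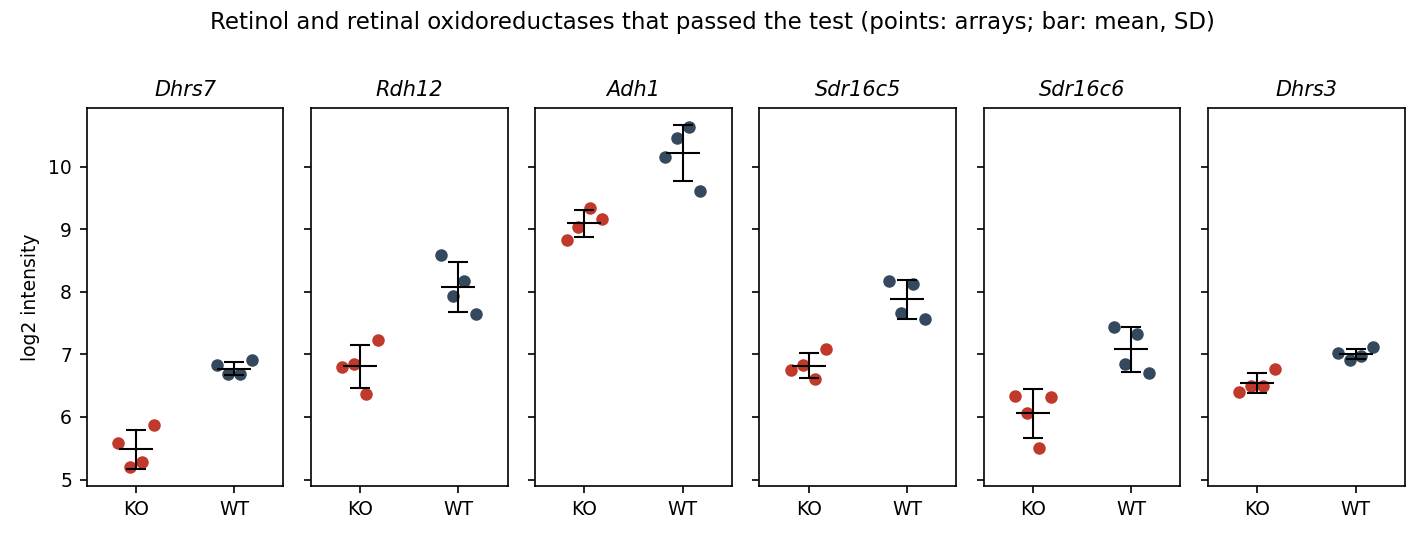
Log2 intensity of the 6 retinol and retinal oxidoreductases that passed, KO left of WT, with points for the arrays and bars for the group mean and SD (n = 4 each). All KO points lie below all WT points in each panel, with the narrowest separation in Dhrs3, Sdr16c6 and Adh1.

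In the other roles single genes passed. Lower were 6.67% of the uptake, storage and binding genes and 16.7% of the other oxidation and breakdown genes, beside 2.34% of all genes. Of 15 uptake, storage and binding genes Fabp5, a fatty acid binding protein that can carry retinoic acid to Ppard, was at 9.70, 9.42, 9.52 and 10.01 in KO skin, against 10.43, 10.35, 10.23 and 10.05 in WT skin. It fell by 0.60 on the log2 scale (SE 0.14, limma adjusted p = 0.028) and lost its call without any 1 of KO arrays 1 to 3 or WT arrays 1 to 3 (adjusted p 0.054 to 0.094). The median of the 15 was -0.20, and 14 did not pass. Of 6 genes of other retinal oxidation and of retinoic acid breakdown, Cyp2s1, a cytochrome P450 reported in human skin to act on retinoic acid, was at 6.15, 6.34, 5.97 and 6.55 in KO skin, against 7.07, 7.41, 7.39 and 6.71 in WT skin. It fell by 0.89 (SE 0.18, limma adjusted p = 0.015), and lost its call without WT array 3 (adjusted p = 0.051).

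Of 9 receptors and cofactors Rara rose (11.1% higher, beside 6.41% of all genes). It was at 6.46, 6.50, 6.36 and 6.31 in KO skin, against 5.82, 6.06, 6.09 and 5.75 in WT skin, with a difference of 0.48 (SE 0.11, limma adjusted p = 0.024). Its call was lost without KO array 1, 2 or 3 (adjusted p 0.059 to 0.087), without WT arrays 3 and 4 together (0.069), and after quantile normalization (0.063) or cyclic loess (0.058). The median of the 9 was 0.11.

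Of 13 measured genes known to respond to retinoic acid, Hbegf, a ligand of the EGF receptor, rose and Dhrs3 fell. That is 7.69% in each direction, beside 6.41% higher and 2.34% lower of all genes. The median of the 13 was 0.03, which is the difference of Cyp26a1. Hbegf was at 6.53, 6.06, 6.74 and 6.30 in KO skin, against 5.47, 5.13, 5.89 and 5.42 in WT skin (0.93, SE 0.18, limma adjusted p = 0.014), and it passed in all 19 alternatives. The most used readouts of the receptors, named here for that role, did not pass. Rarb differed by 0.11 (limma adjusted p = 0.60), Cyp26a1 by 0.03 (limma adjusted p = 0.92) and Cyp26b1 by 0.24 (limma adjusted p = 0.22). Rarb and Cyp26a1 were dim, with group means at the 29.0 and 26.1 percentile of measured genes in KO skin and the 25.8 and 24.3 percentile in WT skin. Lrat, Krt4 and Rarres2 of the same list were dim too. They were at the 19.6, 28.5 and 27.8 percentile in KO skin and the 21.6, 25.3 and 31.1 percentile in WT skin. These p-values do not show that the levels were equal.

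**Figure D3:**
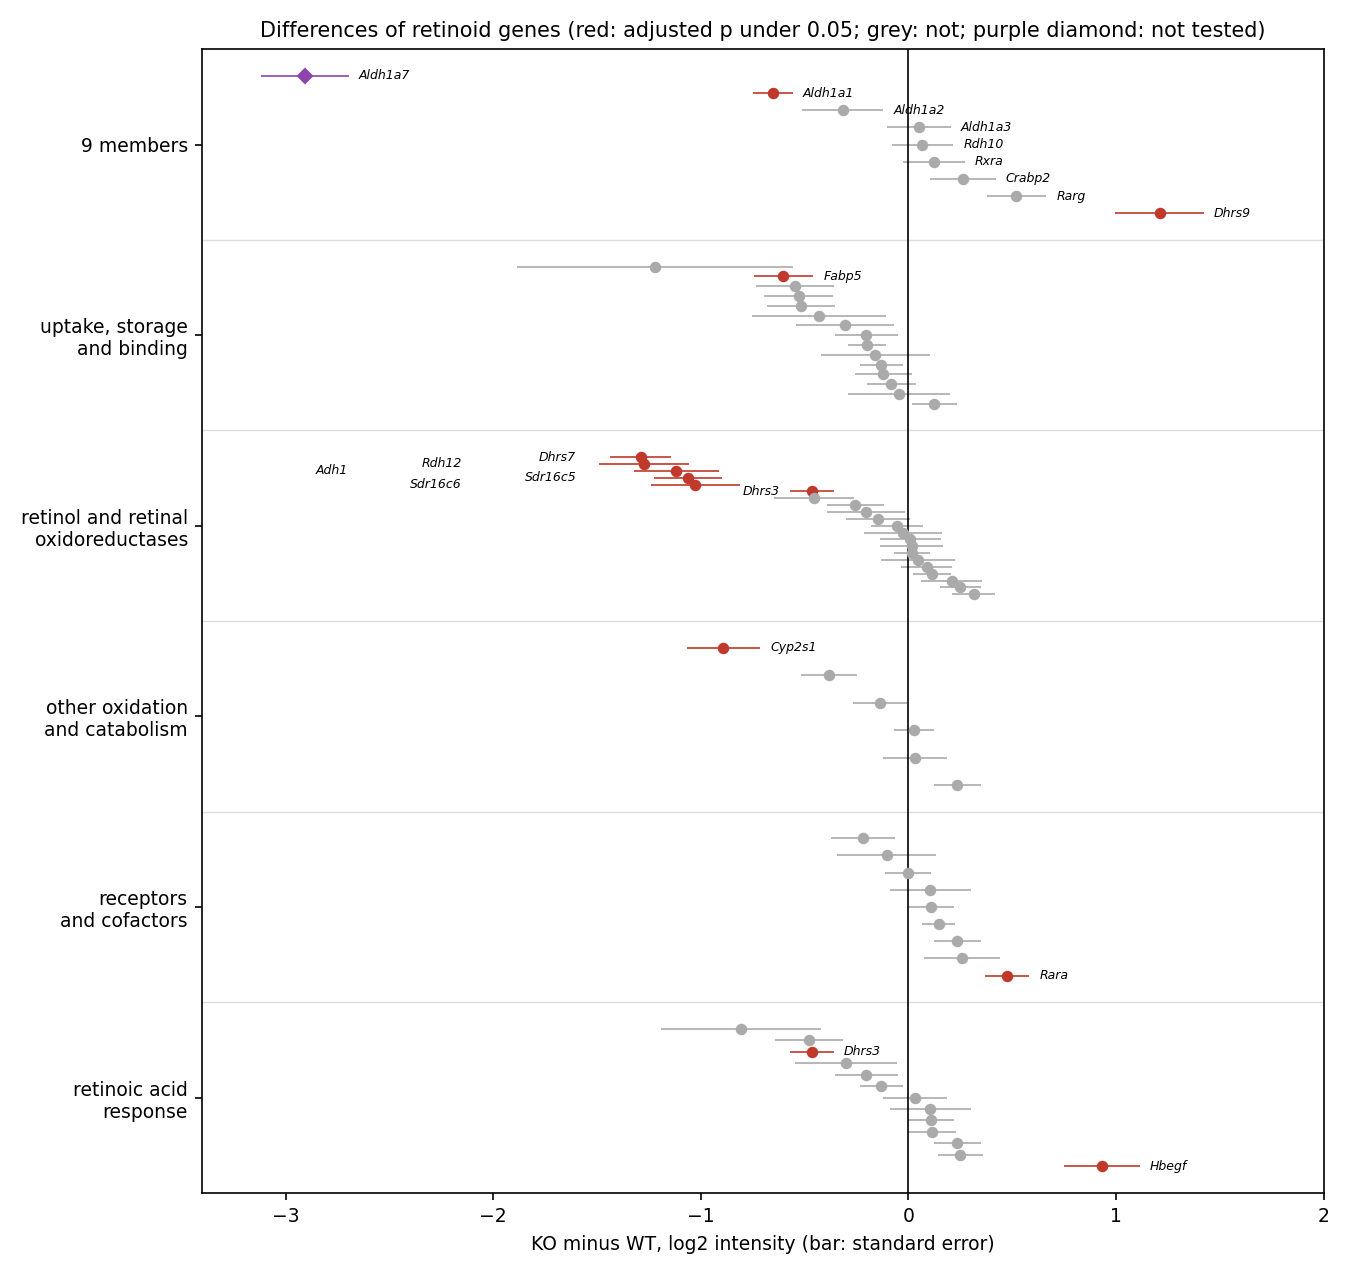
KO minus WT difference in log2 intensity (horizontal axis) for the 9 members and for the other retinoid genes by role, with bars of 1 standard error. Red points passed at an adjusted p under 0.05, grey points did not, and Aldh1a7 is drawn as an untested diamond at -2.91. The 6 red points of the oxidoreductases lie between -1.29 and -0.47.

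Cell type markers also differed between the groups. Of all genes 6.41% rose and 2.34% fell. Single genes did not overlap between groups in 12.2% on the higher side and 5.86% on the lower side. Of 6 basal keratinocyte markers 5 rose, and their summed intensity was above all WT arrays on every KO array. Of 7 macrophage markers 4 fell (summed 171 to 234 on KO arrays and 328 to 515 on WT arrays), and of 5 sebocyte markers 3 fell (summed 59.96 to 81.7 on KO arrays and 100.1 to 114 on WT arrays). Among the sebocyte markers Scd3, which did not pass, lay below the 25th percentile on at least 6 arrays. Of the 3 that fell, Elovl3 and Fa2h were dim. Their group means were at the 19.6 and 21.8 percentile of measured genes in KO skin and the 34.1 and 31.6 percentile in WT skin. Of 6 inner root sheath markers 2 fell (609 to 699 on KO arrays and 601 to 747 on WT arrays). Their sum is weighted to Gata3, the brightest (8.63 to 8.95 in KO skin, 7.91 to 8.69 in WT skin), which differed by 0.33. The others differed by -1.08 (Krt73) to -0.06 (Krt27), so the overlap of the sums does not describe them. Of 5 suprabasal keratinocyte markers 0 passed (16560 to 18400 on KO arrays and 16580 to 20990 on WT arrays). The part of these markers in the falls of Aldh1a7, Aldh1a1 and the oxidoreductases and in the rise of Dhrs9 was not tested.

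By the root-mean-square gap between log2 profiles over the 8 arrays, each centred on its own mean, the genes most like Aldh1a7 were Ano7 (0.47), Abhd14b (0.51), Serpinb3a (0.52), Akr1d1 (0.54) and Ms4a4a (0.61). Ano7 is an anoctamin, Serpinb3a a serine protease inhibitor of squamous epithelium, and Akr1d1 a steroid reductase. Most like Aldh1a1 were Arhgap24 (0.06), Ankrd27 (0.09) and Tmem229a (0.09). Most like Dhrs9 were Pls1 (0.14), Rerg (0.14) and Itga6 (0.15), the last a laminin-binding integrin chain that is also among the basal keratinocyte markers above. Itga6 was at 9.42, 9.45, 9.20 and 8.76 in KO skin and 8.21, 7.93, 7.86 and 7.52 in WT skin. In both Itga6 and Dhrs9 KO arrays 1 and 2 were the highest of all. Such a shared order follows from picking Itga6 by its likeness to Dhrs9 on these arrays, and is no evidence of a link.

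Of the 6 measured genes nearest to Aldh1a7, Aldh1a1 passed. In the RefSeq gene order of GRCm38.p6, the 3 nearest measured genes on one side are Aldh1a1, 1500015L24Rik and Anxa1, and on the other side Tmc1, Zfand5 and Gda. Apart from Aldh1a1 none of the 5 passed, with differences from -0.15 (Tmc1) to 0.59 (Anxa1, limma adjusted p = 0.059). Anxa1 passed in 5 of the 19 alternatives, among them without WT array 1 (0.75, adjusted p = 0.015), and Zfand5 in 2. Aldh1a2 lies on chromosome 9 close to Adam10, with 1 measured gene, Aqp9, between them. Around it Mindy2 fell by 0.67 on the log2 scale (SE 0.14, limma adjusted p = 0.019) and Myzap rose by 0.67 (SE 0.15, limma adjusted p = 0.022), while Aqp9, Polr2m and Cgnl1 did not pass. Polr2m passed in 3 alternatives. Mindy2 lost its call without KO array 3 or WT array 3 (adjusted p = 0.051 and 0.058), and Myzap without KO array 1, 2 or 3 or WT array 2 (adjusted p 0.054 to 0.078).

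**Figure D4:**
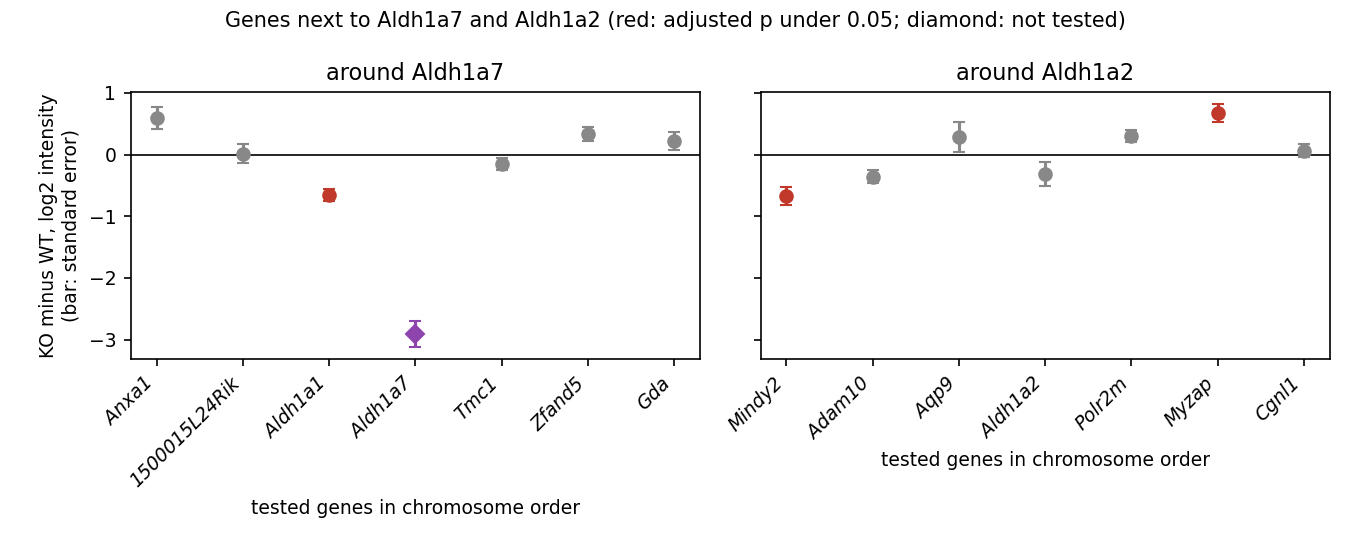
KO minus WT difference in log2 intensity (vertical axis) for the 3 nearest measured genes on either side of Aldh1a7 and of Aldh1a2, in chromosome order, with bars of 1 standard error. Around Aldh1a7 the paralog Aldh1a1 is the 1 neighbour that passed, and around Aldh1a2 the genes Mindy2 and Myzap passed in opposite directions.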

How the data were processed

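The deposited values are intensities, 1 for each probe set on each array. RMA, which corrects background, normalizes between arrays and summarises probes, made them per the submitters' processing notes. Its version is not given in the sources used here, nor is a genome build. The values ran from 0.817 to 11173.01, so they were read as linear and log2 was taken with no offset. The platform annotation gave exactly 1 symbol to 21780 of 35519 probe sets, which made 19935 genes (the probe set with the highest mean kept), with no filter on dim genes. KO was compared with WT with limma 3.58.1 in R 4.3.3 (lmFit and eBayes, two-sided). P-values were adjusted by the Benjamini-Hochberg method across the 19935 genes, and 0.05 was the threshold. Every adjusted p is from limma. "Rose" and "fell" name genes past that threshold.

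The labels do not say that each sample came from a separate animal, so p-values measure the spread between these samples, and the number of arrays limits the precision. The members, the gene lists and the tests were chosen with earlier results of these data known. Of the pathway lists all genes that passed are named, or the 4 largest differences where more than 5 passed in a direction, together with the genes of nearest profile (5 for Aldh1a7, 3 for Aldh1a1 and Dhrs9) and the 3 neighbours on either side. Of the 61 other pathway genes listed, 57 were analysed and the other 4 are not reported here. Promoters were read from a RefSeq table (Biopython 1.88 for alignment), which was not matched for Aldh1a3, Rdh10 and Crabp2. The fit was tested on simulated data. The alternatives tried were cyclic loess, median centring, quantile normalization, a filter on dim genes (above the 25th percentile on at least 4 arrays), log2 of the value plus 16, the mean of all probe sets, a trended and robust prior, array weights, a Y chromosome or muscle marker covariate, no WT arrays 3 and 4, and 1 array at a time left out.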

Additional observations from a re-analysis of the deposited data

Results flagged for a closer look

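Of 82 groups of 4 arrays, in 41 named genes, 7 held an array far from the other 3 (gap to the nearest over the range, above Dixon's 95% critical value), where chance gives about 1 in 20 groups. Among the retinoid genes, Rarg was at 6.563 on WT array 4, against 7.069 to 7.156 on the other WT arrays. Aldh1a3 was at 4.418 on WT array 4, against 4.131 to 4.153. Adam10 was at 7.064 on WT array 3, against 7.331 to 7.385 on the other WT arrays. Among genes of like profile, Serpinb3a was at 6.241 on KO array 4, against 5.018 to 5.195, and Ankrd27 at 6.274 on KO array 4, against 6.085 to 6.114. Among the neighbours, Gda was at 2.337 on KO array 3, against 2.879 to 2.919, and Polr2m at 7.621 on KO array 1, against 7.858 to 7.887.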

How the results depend on the processing

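Dhrs9 and Aldh1a1 kept their direction and call in all 19 alternatives, and Crabp2 and Aldh1a2 their direction and lack of a call (Aldh1a2 in 18, since the dim filter left it out). Aldh1a7 stayed between -3.09 and -2.15, the last with 16 added before the logarithm. Rarg passed after median centring (0.62), the dim filter (0.52), log2 of the value plus 16 (0.47), the trended and robust prior (0.52) and array weights (0.47), and ran from 0.38 to 0.58 with 1 array left out. It did not pass after quantile normalization (0.42, adjusted p = 0.092), after cyclic loess (0.39, adjusted p = 0.099) or with the muscle covariate (0.29, adjusted p = 0.19). Differences near 0 turned sign, with no call on either side. Rdh10 was -0.0277 after quantile normalization, -0.0534 after cyclic loess, -0.0827 without WT arrays 3 and 4 and -0.146 with the muscle covariate, and ran from -0.0581 (without WT array 4) to 0.198 with 1 array left out. Rxra was -0.0116 after cyclic loess, -0.0238 without WT arrays 3 and 4 and -0.0645 with the muscle covariate. Aldh1a3 was -0.0556 without KO array 2 and -0.0079 without KO array 3, and at most 0.183 with 1 array left out. Aqp9 was -0.0601 with the muscle covariate, and 1500015L24Rik was -0.0026 without WT arrays 3 and 4 and negative without KO array 3 (-0.0867), KO array 4 (-0.0239) or WT array 3 (-0.0859), within a range up to 0.115. Calls were also lost for Fabp5 (adjusted p = 0.058) and Dhrs3 (0.056) after median centring, and for Dhrs3 (0.084), Rara (0.086) and Myzap (0.080) with the muscle covariate. Adam10 passed after quantile normalization (-0.46), cyclic loess (-0.49), the dim filter (-0.36), log2 of the value plus 16 (-0.32) and the trended and robust prior (-0.36). The 1744 genes called became 2739 after median centring, 3621 with array weights and 925 without WT arrays 3 and 4. With 1 array left out they ran from 587 (KO array 2) to 1997 (WT array 4), with 911 without KO array 1, 809 without KO array 3, 992 without WT array 2 and 750 without WT array 3. The 10 pathway genes called became 15 with array weights, and ran from 6 (without KO array 2 or WT array 3) to 12 (without WT array 4) with 1 array left out. Anxa1 (0.70), Zfand5 (0.44) and Polr2m (0.40) passed after median centring. Zfand5 (0.31) and Polr2m (0.28) passed with 16 added before the logarithm. Anxa1 (0.58) and Polr2m (0.32) passed with array weights, and Anxa1 (0.59) with the dim filter or the trended and robust prior. The cause of these changes was not tested. No paired analysis was possible because the labels give the groups no shared replicate numbers. Low signal limits Aldh1a1, Aldh1a2, the WT level of Dhrs9, Rarb, Cyp26a1, Lrat, Krt4, Rarres2 and the sebocyte markers Scd3, Elovl3 and Fa2h.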
